A study of Sus scrofa with 16 samples.

Results

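The miR-17-92 cluster and its paralogues were read here in small RNA from pig endometrium, the lining of the uterus, as 10 mature miRNAs. They are miR-17, miR-18a, miR-19a, miR-19b, miR-20a and miR-92a of the cluster itself, miR-106a of its copy on the X chromosome, and miR-93, miR-25 and miR-106b of its other paralogue. A read was counted for a member when it was 20 to 26 nt long and its first 20 nt equalled the main arm of that member. All 10 were found, among 23707 groups of reads that shared their first 20 nt and held at least 30 reads over the series. The animals were 15 adult sows on day 10 of pregnancy, which had been given oestradiol (E2) by mouth from insemination. The groups held 4 control sows on the ethanol carrier (0 µg E2 per kg body weight per day), 3 sows on 0.05, 4 sows on 10 and 4 sows on 1000 µg/kg/day. Sow 7 of the 0.05 group was extracted 2 times, and its 2 libraries were summed into 1 replicate.

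A miRNA is a short RNA that guides a silencing protein complex to messenger RNAs, which it recognises mainly through its seed, bases 2 to 8. The miR-17-92 cluster is transcribed as 1 precursor that is cut into several hairpins, each of which yields a mature miRNA. The cluster is induced by MYC and E2F factors in dividing cells, and its miRNAs are known to lower the cell cycle inhibitor p21 and the pro-apoptotic protein BIM. The paralogue with miR-106b, miR-93 and miR-25 lies within an intron of MCM7, a replication licensing gene. The endometrium at this stage of pregnancy holds proliferating and secreting glands, stroma, vessels and leukocytes, so a level in this tissue is an average over many cell types.

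No table of mature miRNA sequences was used here. Each member was therefore recognised from its textbook seed, its first base and bases 9 to 11, and the sequence shown is the most abundant read that matched, copied from the deposited reads. These sequences are given because the members fall into 4 seed families that cut across the genomic clusters. Capitals mark the seed, letters run 5′ to 3′, and T stands for U.
The miR-17 seed was carried by 5 members.
miR-17: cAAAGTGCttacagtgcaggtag
miR-20a: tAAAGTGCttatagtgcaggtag
miR-106a: aAAAGTGCttacagtgcaggtag
miR-93: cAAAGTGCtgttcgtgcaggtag
miR-106b: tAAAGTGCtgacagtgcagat
The miR-92 seed was carried by a member of the cluster and a member of the paralogue.
miR-92a: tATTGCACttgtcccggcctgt
miR-25: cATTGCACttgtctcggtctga
The miR-19 seed was carried by a pair that differ within the counted bases only by C11T, with miR-19b as the reference and positions counted from the 5′ end.
miR-19b: tGTGCAAAtccatgcaaaactgt
miR-19a: tGTGCAAAtctatgcaaaactgt
The miR-18 seed was carried by 1 member.
miR-18a: tAAGGTGCatctagtgcagatag

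In the RefSeq gene table of the pig assembly Sscrofa11.1, MIR17, MIR18A, MIR19A, MIR20A, MIR19B-1 and MIR92A-1 follow each other on chromosome 11. A further set stands together on the X chromosome: MIR363-1, MIR92A-2, MIR19B-2, MIR20B-1, MIR18B and MIR106A. Reads of miR-19b and miR-92a can therefore come from either of 2 loci, which these counts do not part. MIR93, MIR25 and MIR106B are named here only.

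The libraries held 4497096 to 18525580 reads per sow, of which 46.7 to 78.4% were 18 to 26 nt long. Levels are given as RPM, reads per 1000000 of these 18 to 26 nt reads. The libraries fell into 3 length classes that were defined after the data were seen. The 6 sows of class A had under 8% of reads of 17 to 19 nt, the 6 sows of class B had more of these short reads but under 5% of reads of 40 to 49 nt, and the 3 sows of class C had more of both. Control and the 10 µg/kg/day group each held 2 sows of class A and 2 of class B. The 0.05 group held 1 sow of each class, and the 1000 group held 1 sow of class A, 1 of class B and 2 of class C. Epithelial seed families (the miR-200 group, miR-203 and miR-205) summed to 24630 to 39990 RPM, and stromal and smooth muscle families (miR-143, miR-145, miR-199a and miR-214) to 57300 to 136000 RPM. The highest stromal sum was that of sow 13 on 1000 µg/kg/day, where miR-143 alone stood at 122200 RPM. In that sow miR-199a (9883 RPM) and miR-214 (117.3 RPM) were the lowest of all sows. The skeletal and cardiac muscle families miR-1 with miR-206 (1255 RPM) and miR-133 (104.5 RPM) were the highest there. Both kinds of marker stood in every sow; endometrium has no miRNA marker of its own.

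The members were present in all 15 sows and summed to 7915 ± 875.5 RPM (SD, n = 15). The 6 cluster members made up 5778 ± 765.9 RPM (SD, n = 15), and the 3 paralogue members 2133 ± 207.7 RPM (SD, n = 15). Ranked by their mean, the members stood in the order miR-92a, miR-25, miR-20a, miR-19b, miR-93, miR-17, miR-106b, miR-19a, miR-18a and miR-106a. Most steps of this order held in 15 of 15 sows. The exceptions were miR-25 over miR-20a, which held in 9 of 15 sows at a median ratio of 1.05, and miR-17 over miR-106b, which held in 10 of 15 sows at a median ratio of 1.11. These 2 pairs of neighbours did not differ beyond their spread. Reads carry no molecular identifiers, and how well a sequence is ligated and amplified was not measured. Ratios between different miRNAs are therefore ratios of reads.

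miR-92a, which targets integrin and KLF2 messages in endothelium, was the most abundant member. It stood at 3531, 2783, 3494 and 2896 RPM in control sows 1 to 4, and at 4597, 3572 and 3729 RPM in sows 5 to 7 on 0.05 µg/kg/day. On 10 µg/kg/day, sows 8 to 11 had 3157, 2974, 3401 and 3292 RPM. On 1000 µg/kg/day, sows 12 to 15 had 3443, 3004, 3583 and 3550 RPM. All 3 sows of the lowest dose were above all 4 controls, while the groups on 10 and 1000 overlapped with control. miR-92a was the 1 member of 10 whose lowest-dose sows all lay above control, as did 2.25% of the 9951 read groups tested. With extraction 7a alone sow 7 stands at 3519 RPM, below control sow 1, and the groups overlap. In the edgeR fit over all 9951 tested read groups the log2 difference from control was 0.30 at 0.05 µg/kg/day (95% confidence interval -0.12 to 0.73), 0.12 at 10 (-0.28 to 0.51) and 0.14 at 1000 (-0.25 to 0.54). None passed the threshold, an adjusted p under 0.05.

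miR-20a, the main carrier of the miR-17 seed in this tissue, stood at 1850, 1481, 1426 and 986.3 RPM in the control sows. It had 2049, 1444 and 1209 RPM on 0.05, 1675, 1557, 1381 and 1146 RPM on 10, and 1856, 1225, 1239 and 1111 RPM on 1000 µg/kg/day. The groups overlapped, and within each group the highest value belonged to a sow of class A. Its log2 differences from control were 0.09, 0.12 and -0.04 in order of dose.

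miR-19b, the more abundant carrier of the miR-19 seed, stood at 851.1, 702.6, 526.9 and 426 RPM in the control sows. It had 664.9, 692.4 and 465.4 RPM on 0.05, 937.8, 807.1, 665.3 and 472.9 RPM on 10, and 623.6, 500.3, 478.9 and 376.6 RPM on 1000 µg/kg/day. The values of the treated sows overlapped with control at each dose. The log2 difference was -0.06 at 0.05, 0.32 at 10 (95% confidence interval -0.27 to 0.91) and -0.30 at 1000 (-0.89 to 0.29). miR-19a, which shares its seed, had group means of 73.11, 67.72, 87.31 and 58.49 RPM in order of dose.

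miR-25, the miR-92 seed carrier of the paralogue, stood at 1493, 1304, 1380 and 1496 RPM in the control sows. It had 1464, 1609 and 1557 RPM on 0.05, 1390, 1593, 1743 and 1454 RPM on 10, and 1576, 1283, 1852 and 1834 RPM on 1000 µg/kg/day. It was the steadiest member over the 15 sows, with a coefficient of variation of 11.3%, beside 12.9% for miR-92a and 19 to 47.3% for the other members. Its log2 differences were 0.12, 0.25 and 0.25 in order of dose, with a 95% confidence interval of -0.17 to 0.68 at 1000.

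Of the less abundant members, miR-93 ranged from 247 to 498.9 RPM over the sows, miR-17 from 145.1 to 337.1 RPM, miR-106b from 160.3 to 294.9 RPM and miR-18a from 14.22 to 36.28 RPM. Their group ranges overlapped between control and each dose. Their log2 differences lay between -0.31 (miR-18a at 1000) and 0.22 (miR-18a at 10).

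**Figure D1:**
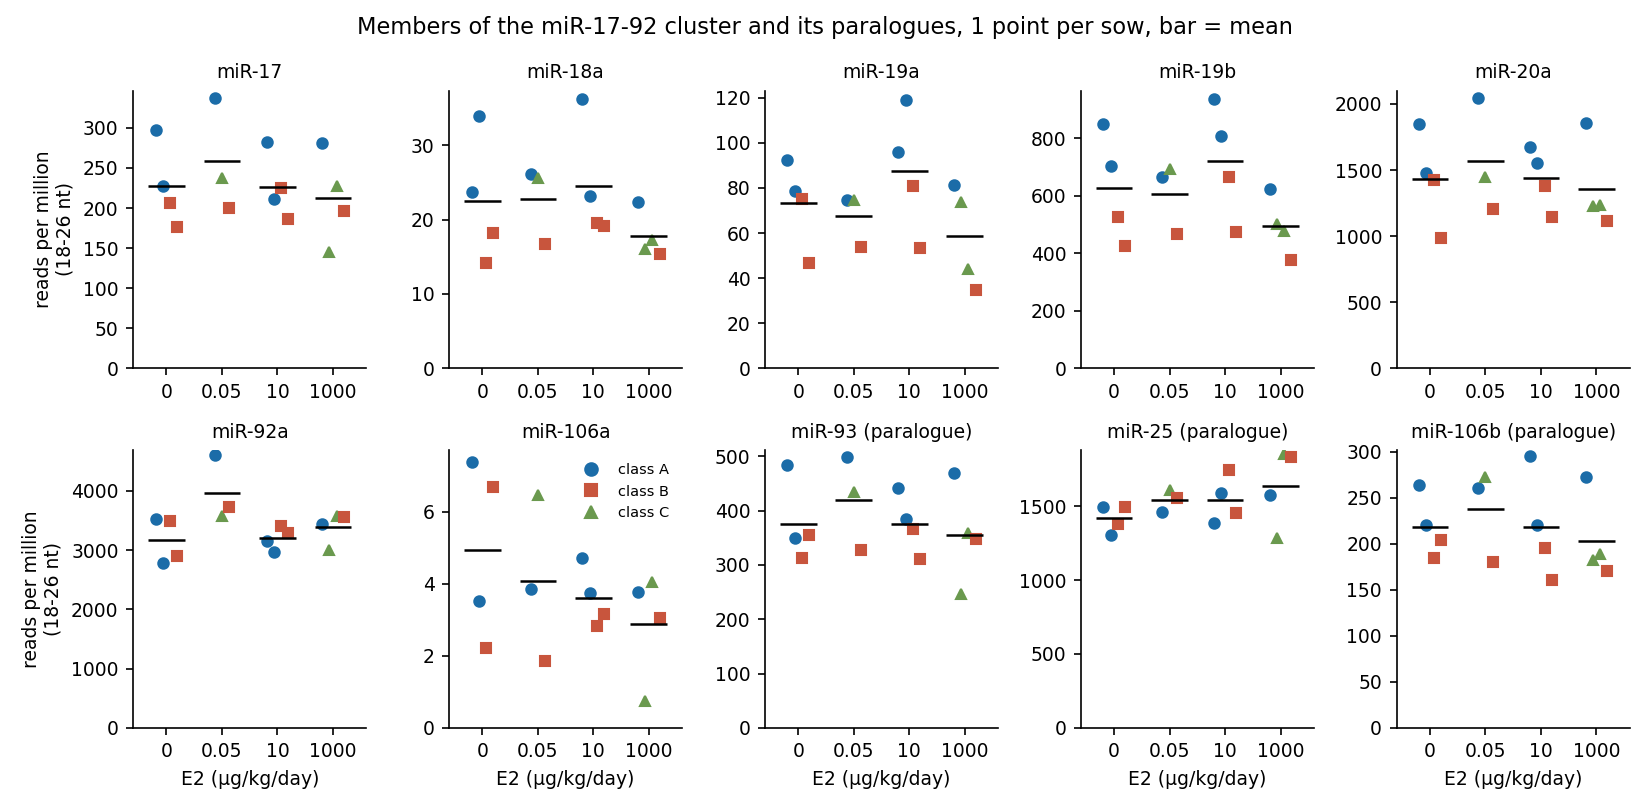
RPM (reads per 1000000 reads of 18 to 26 nt; vertical axes, linear from 0) of each member against the E2 dose, 1 point per sow, with the group mean as a bar and the length class of the library as colour and shape. Within a dose the class A points of most members lie highest, and the miR-92a points of the lowest dose, 3572 to 4597 RPM, lie above the 4 control points.

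miR-106a was at the edge of detection, with 335 reads in all and 2 to 46 reads per sow. Its group means were 4.941 ± 2.482 RPM in control (SD, n = 4), 4.062 ± 2.305 on 0.05 (SD, n = 3), 3.607 ± 0.8232 on 10 (SD, n = 4) and 2.892 ± 1.502 on 1000 µg/kg/day (SD, n = 4). The log2 difference at 1000 was -0.69 with a 95% confidence interval of -1.60 to 0.22, and the ranges overlapped. miR-106a differs from miR-17 within the counted bases by C1A alone, with miR-17 as the reference. Reads with A as first base came to 1.64% of miR-17, whereas such reads came to between 0.0173% (miR-25) and 0.0638% (miR-19a) of the other members. The number of misread miR-17 reads among the miR-106a reads was not measured.

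No member was called at any dose. With edgeR's quasi-likelihood test and Benjamini-Hochberg adjustment, 0 of 10 members passed at 0.05, 10 and 1000 µg/kg/day, beside 0 of the 9951 read groups at each dose, a background of 0%. The test of the 3 doses together and the trend over dose rank also called 0 members and 0 read groups, again a background of 0%. At an unadjusted p under 0.05 the counts of read groups were 256, 317 and 445 in order of dose, 305 for the 3 doses together and 407 for the trend, with 0 members among them. DESeq2 called 0, 1 and 0 read groups in order of dose, 2 for the 3 doses together and 0 for the trend, and no member. The members' median log2 difference was 0.10 at 0.05, with 6 of 10 higher than control, against -0.01 over all read groups with 49.2% higher. At 10 it was 0.12 with 9 of 10 higher, against 0.03 and 54.5%, and at 1000 it was -0.06 with 2 of 10 higher, against 0.01 and 51.5%. The 3 dose comparisons share their control sows. A tissue with fewer cells that hold a miRNA and one with less of it per cell cannot be told apart in these bulk samples.

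**Figure D2:**
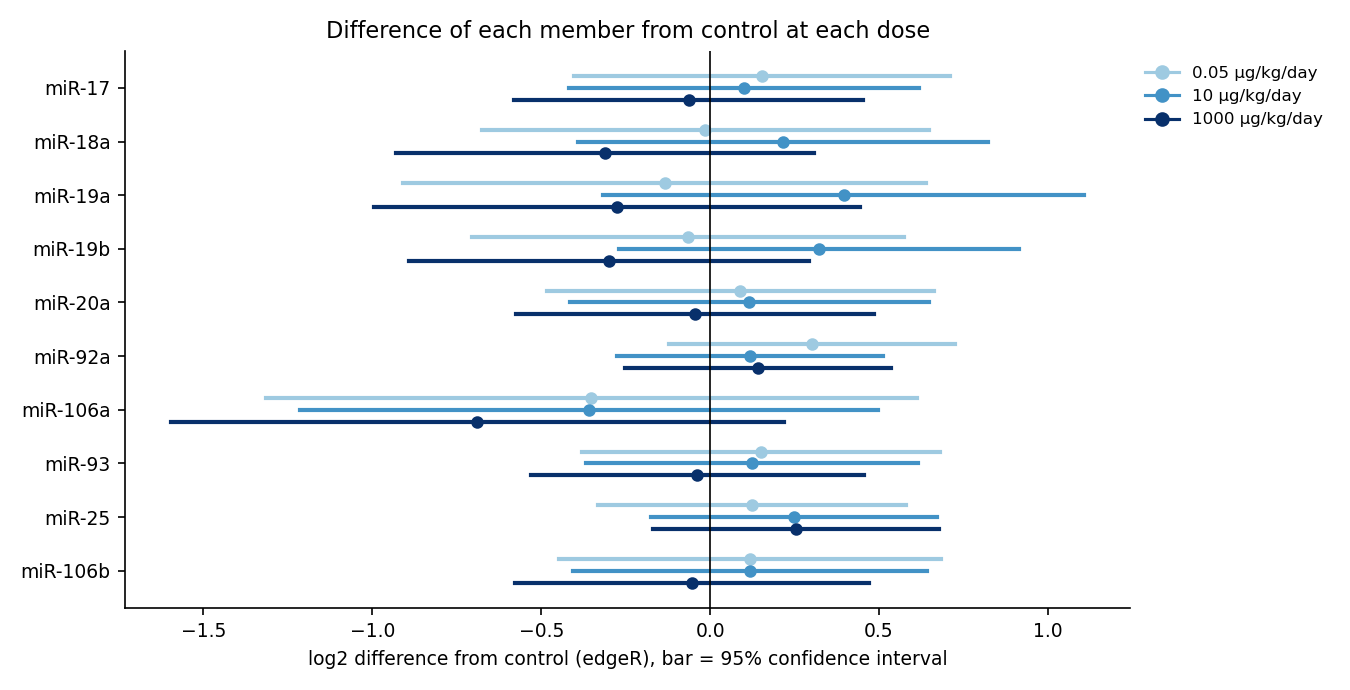
Log2 difference of each member from control (horizontal axis) at 0.05, 10 and 1000 µg/kg/day from the edgeR fit over 15 sows, with 95% confidence intervals as bars. Each interval crosses 0, and miR-106a, the rarest member, has the widest ones, such as -1.60 to 0.22 at 1000.

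miR-92a exceeded each of its cluster partners in 15 of 15 sows. The median excess was 2.45-fold over miR-20a (1.85 to 3.19 over the sows), 6.01-fold over miR-19b (3.37 to 9.42) and 15.1-fold over miR-17 (11.2 to 20.7). It was 46.6-fold over miR-19a (25 to 103) and 172-fold over miR-18a (81.9 to 246). Of all cluster reads, miR-92a held 59.1% ± 5.3 (SD, n = 15), miR-20a 24.8% ± 2.76, miR-19b 10.6% ± 2.38, miR-17 3.93% ± 0.448, miR-19a 1.24% ± 0.358 and miR-18a 0.379% ± 0.107. The paralogue was also uneven: miR-25 held 72% ± 4.22 of its reads (SD, n = 15), miR-93 17.7% ± 2.57 and miR-106b 10.2% ± 1.87. Among the reads counted for the cluster and for the paralogue, the carrier of the miR-92 seed thus gave the most. Reads of miR-92a and miR-19b can also come from the X chromosome, so the cluster shares are not those of a single locus.

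The excess of miR-92a over the mean of its 5 partners did not pass a test against control at any dose. It was 5.67, 5.51, 7.77 and 8.76-fold in the control sows, with a geometric mean of 6.79-fold. The geometric means were 7.96-fold on 0.05, 6.51-fold on 10 and 8.05-fold on 1000 µg/kg/day. As log2 ratios these differ from control by 0.23, -0.06 and 0.25, with two-sided exact permutation p = 0.314 (n = 3 against 4), p = 0.714 (n = 4 against 4) and p = 0.286 (n = 4 against 4). The adjusted p was 1 for each, over 21 ratio tests.

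The cluster over the paralogue was nearly flat over dose. The summed reads of the 6 cluster members exceeded those of miR-93, miR-25 and miR-106b by 2.75-fold in control, 2.92-fold on 0.05, 2.67-fold on 10 and 2.53-fold on 1000 µg/kg/day (geometric means). Single sows lay between 2.21 and 3.49-fold. Exact permutation tests against control gave p = 0.629, 0.771 and 0.371 in order of dose, each with an adjusted p of 1. Within the seed families, miR-92a over miR-25 was 2.23-fold in control and 2.56, 2.08 and 2.09-fold in order of dose. miR-17, miR-20a and miR-106a together over miR-93 and miR-106b together stayed between 2.75 and 2.82-fold in the group means. The remaining ratios were miR-19b over miR-19a, miR-106b over miR-93 and miR-25 over miR-93. None passed, with unadjusted p from 0.2 to 1 over the 21 tests. A single ratio could not have passed after this adjustment, since the smallest p that the exact test allows for 4 against 4 sows is 0.0286.

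**Figure D3:**
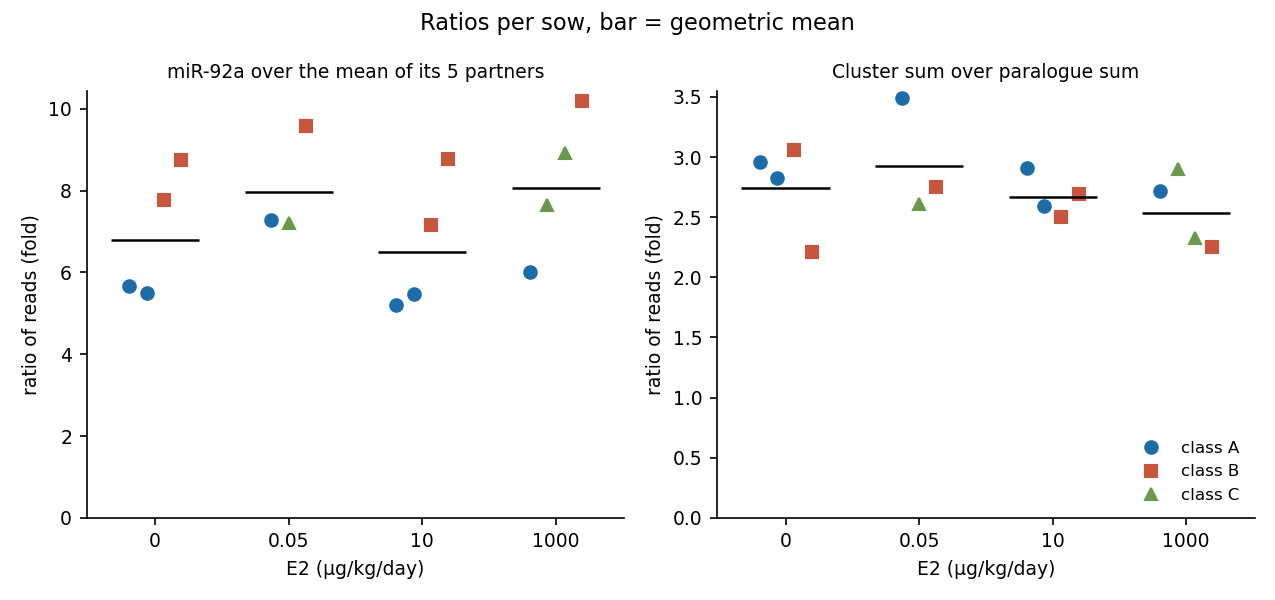
Ratio of reads per sow (vertical axes, fold, from 0) of miR-92a over the mean of its 5 partners (left) and of the summed cluster over the summed paralogue (right) against the E2 dose. Bars are geometric means, 6.79, 7.96, 6.51 and 8.05-fold on the left, and colour and shape give the length class. Class A and class B points separate on the left within each of the 4 dose groups, with 1 sow of each of these classes at 0.05 and at 1000.

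Most members moved with the length class of the library. Adding class to the dose model, edgeR called 6 of 10 members lower in class B than in class A, against 3.9% of the 9951 read groups lower (6.56% called in either direction). The 6 were miR-17 at a log2 difference of -0.54 (adjusted p = 0.0432), miR-18a at -0.79 (0.00858), miR-19a at -0.77 (0.0284), miR-19b at -0.74 (0.00861), miR-20a at -0.62 (0.0195) and miR-106b at -0.59 (0.0274). These are the 5 partners of miR-92a in the cluster and 1 member of the paralogue. miR-92a stood at -0.10 with a 95% confidence interval of -0.38 to 0.19 and miR-25 at -0.01 (-0.32 to 0.31), both not called. miR-93 (-0.48, adjusted p = 0.067) and miR-106a (-0.57, adjusted p = 0.251) did not pass either. For miR-20a, class A sows had 1481 to 2049 RPM and class B sows 986.3 to 1426 RPM, with no overlap. Class B lay below class A without overlap in 3 of 10 members, miR-18a, miR-20a and miR-106b, and in 1.96% of the 9951 read groups.

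The count of 6 depended on single sows and on scaling. It was 2 without sow 12, 2 without sow 15 and 3 without sow 11. It was also 2 within the control and 10 µg/kg/day sows alone, which are fewer, with class A and class B balanced over dose as in the full fit. In these 4 fits the log2 differences of the 6 members stayed about as large, between -0.88 and -0.50, and 1.9 to 2.73% of all read groups were called lower. It was 0 with scaling by all deposited reads, which moved the median of all read groups to 0.53. Of the 10047 read groups tested with that scaling, 129 were called lower and 3852 higher in class B, 38.3% of all. There miR-92a stood at 0.43 (adjusted p = 0.0167) and miR-25 at 0.52 (adjusted p = 0.00892), both called higher in class B, and the 6 members lay between -0.25 and -0.02. Relative to that median the 6 lay between -0.78 and -0.55, with miR-92a at -0.10. Between class C, with 3 sows, and class A edgeR called 0 of the 9951 read groups, which does not show that they were alike.

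A ratio within a library needs no scaling. miR-92a over its partners was 5.82-fold in class A (5.21 to 7.29 over 6 sows) and 8.65-fold in class B (7.17 to 10.2 over 6 sows). The log2 difference was 0.57, with a two-sided exact permutation p = 0.00433 and an adjusted p of 0.0152 over 7 ratios (n = 6 against 6). Within the control and 10 µg/kg/day sows it was 0.57 as well, with an exact permutation p of 0.0286, the smallest that 4 against 4 sows allow, and an adjusted p of 0.1. miR-25 over miR-93 was likewise 3.37-fold in class A and 4.67-fold in class B (log2 difference 0.47, exact permutation p = 0.00216, adjusted p = 0.0152, n = 6 against 6). The other 5 ratios did not pass, with the cluster over the paralogue at a log2 difference of -0.18 (exact permutation p = 0.0909, adjusted p = 0.212, n = 6 against 6) and miR-92a over miR-25 at -0.09. In the 3 sows of class C, miR-92a over its partners was 7.91-fold (7.22 to 8.93) and miR-25 over miR-93 4.63-fold (3.7 to 5.19). The ratios of class C were not tested.

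Marker levels by class are given beside this, with ranges that overlapped between class A and class B for each marker or list below. The endothelial marker miR-126 stood at 5266 to 6763 RPM in class A and 3960 to 5644 RPM in class B. The summed red cell families (miR-451, miR-144 and miR-486) stood at 1261 to 2602 RPM in class A and 970.9 to 1784 RPM in class B. The 5 leukocyte families summed to 779 to 984 RPM and 637.3 to 1444 RPM. The highest of these sums was control sow 4, where miR-146 alone stood at 1208 RPM. In class A and class B, miR-142 stood at 50.19 to 106.1 and 31.76 to 68.29 RPM, and miR-150 at 125.4 to 187.9 and 79.36 to 134.7 RPM. The ranges were 39.16 to 65.63 and 32.14 to 42.64 RPM for miR-155, and 48.9 to 139.1 and 64.74 to 136.8 RPM for miR-223. The epithelial families stood at 27740 to 39990 RPM and 24630 to 30860 RPM, and the stromal ones at 67550 to 94020 RPM and 57300 to 85680 RPM. None of the families in these lists was at 0 in any sow. Their part in the class difference was not tested. By GC content of the first 20 nt, the 6 members at 35 to 45% had class differences of -0.79 to -0.57 on the log2 scale, and the 4 at 50 to 55% had -0.54 to -0.01. The part of GC content was not tested. The mean read length of each member differed by at most 0.16 nt between class A and class B.

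**Figure D4:**
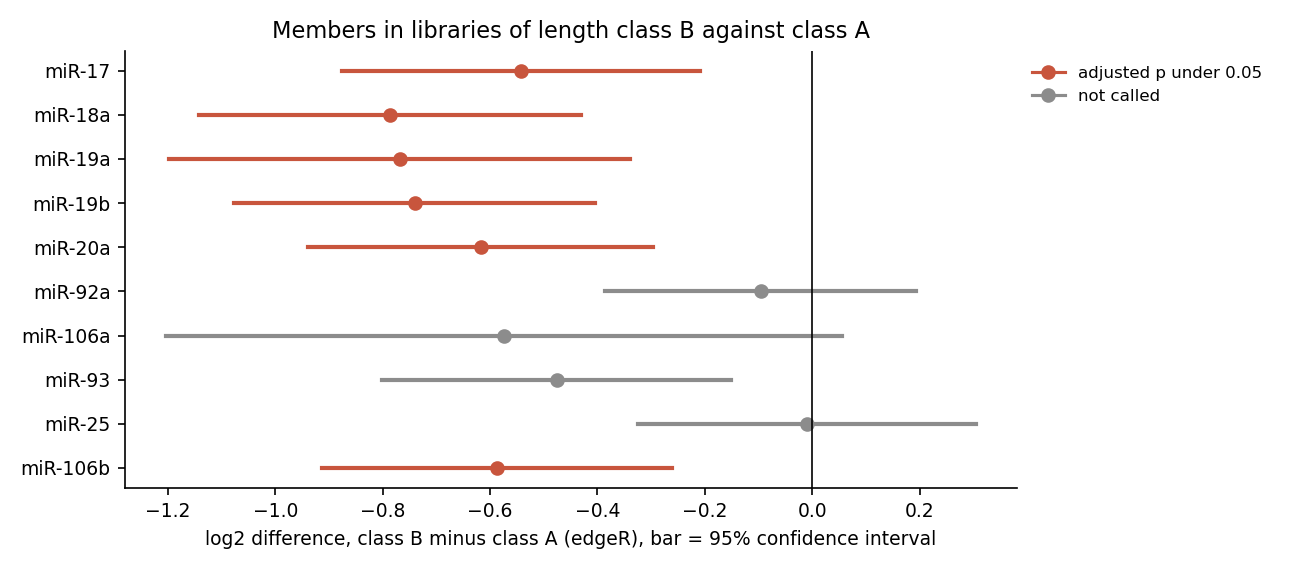
Log2 difference of each member between libraries of length class B and class A (horizontal axis) from the edgeR fit with dose and class, with 95% confidence intervals as bars. Colour marks an adjusted p under 0.05. The 6 called members lie between -0.79 and -0.54, while miR-92a and miR-25 lie at -0.10 and -0.01.

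Across the 15 sows the partners of miR-92a and miR-92a itself were only loosely tied. On the log2 CPM scale (counts per 1000000 reads after edgeR's TMM scaling), Pearson's r was 0.57 (permutation p = 0.0329, adjusted p = 0.0329) and Spearman's rho 0.36 (permutation p = 0.186). Without the 2 sows farthest from the median, sows 4 and 15, r was 0.33. Leaving out the most extreme sows also narrows the range, so this fall does not show that the relation rests on them. Within class A r was 0.32 (exact permutation p = 0.542, n = 6) and within class B 0.84 (exact permutation p = 0.0167, n = 6). Without TMM scaling r was 0.26 over the 15 sows, 0.80 within class A (exact permutation p = 0.0194, n = 6) and 0.43 within class B (exact permutation p = 0.394, n = 6), so the class in which the relation passes depends on scaling. The cluster sum and the paralogue sum gave r = 0.70 (permutation p = 0.00258, adjusted p = 0.00516) and rho = 0.67 (permutation p = 0.00662), and r = 0.49 without sows 4 and 11. Within the classes r was 0.56 in A (exact permutation p = 0.214, n = 6) and 0.73 in B (exact permutation p = 0.0944, n = 6), so on this scale the relation did not pass within either class. With scaling by all deposited reads r was 0.49 in A (exact permutation p = 0.328, n = 6) and 0.69 in B (exact permutation p = 0.0278, n = 6). Without TMM scaling it was 0.63 in A (exact permutation p = 0.147, n = 6) and 0.08 in B (exact permutation p = 0.928, n = 6). These were 2 relations, adjusted together.

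As a description over the same 15 sows, the members nearest to the mean log2 CPM of the 6 cluster members were miR-19b (r = 0.98), miR-20a (0.95), miR-19a (0.92) and miR-106b (0.91). miR-17, miR-18a and miR-93 followed at 0.87, 0.85 and 0.84, and miR-92a, miR-106a and miR-25 stood apart at 0.52, 0.35 and 0.31. The cluster members are part of that mean. Of 3050 other read groups, the 5 most alike had r of 0.91 to 0.92, and they are shown because none carries a seed of the cluster.
group of rank 1: tAGCACCAtttgaaatcggt
group of rank 2: cAGTGCAAtgttaaaagggc
group of rank 3: tGTAAACAtccttgactgga
group of rank 4: tTATAATAcaacctgataag
group of rank 5: tAGCACCAtttgaaatcagt
Ranks 1 and 5 carry the miR-29 seed, rank 2 the seed of the miR-130 family, and rank 3, at 5860 CPM, the seed of the miR-30 family. The group of rank 1, at 86.6 CPM, lies 1 base from a group at least 5-fold more abundant. How many of its reads are misreads of that group was not measured. All points share the same libraries, so the length classes enter each of these values.

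Both arms of a hairpin can leave reads, and the share of the opposite arm differed widely between members. It was found by its seed, and its pairing with the main arm was checked by folding, which gave 14 to 19 paired bases. miR-106b had the highest share, 33.9% of the reads of both arms (21.4 to 43.5% over the sows), followed by miR-18a at 18.7% (8.96 to 26%), miR-17 at 8.04% (6.2 to 14.3%) and miR-93 at 2.77% (1.95 to 4.52%). It was 0.326% for miR-25, 0.0561% for miR-20a, 0.0427% for miR-19b and 0.0328% for miR-92a. By these counts the 2 carriers of the miR-92 seed and the 2 most abundant partners of miR-92a were almost pure for 1 arm. Only 1 opposite arm sequence was counted for each member. miR-92a and miR-19b have 2 loci each, so opposite arm reads of another sequence would be missed for them. For miR-19a no opposite arm group of 20 or more reads was found. The opposite arms with the highest shares are printed to show how unlike the main arms they are.
miR-106b-3p: cCGCACTGtgggtacttgct
miR-18a-3p: aCTGCCCTaagtgctccttctgt
miR-17-3p: aCTGCAGTgaaggcacttgtaga
The share was tested where each sow had 20 or more opposite arm reads, which left miR-17, miR-93 and miR-106b. The miR-106b share was 32.1% ± 3.31 in control (SD, n = 4), 30.7% ± 6.84 on 0.05 (SD, n = 3), 31.6% ± 7.14 on 10 (SD, n = 4) and 36.2% ± 6.65 on 1000 µg/kg/day (SD, n = 4). The 9 exact permutation tests against control gave adjusted p of 0.857 to 0.943; a single one could not have passed over 9 tests, as the smallest p for 4 against 4 sows is 0.0286. By length class the miR-106b share was 21.4 to 32.1% in the 6 sows of class A and 33.6 to 43.5% in the 6 of class B, with no overlap. The opposite arm averaged 98.69 RPM in class A and 108.9 RPM in class B, and the main arm 255.3 and 182.4 RPM. The share thus moved mainly with the main arm, whose class difference is given above. For each other member with a share above, the ranges of class A and class B overlapped. The miR-18a share was 8.96 to 24.6% in class A and 18.2 to 23.6% in class B.

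**Figure D5:**
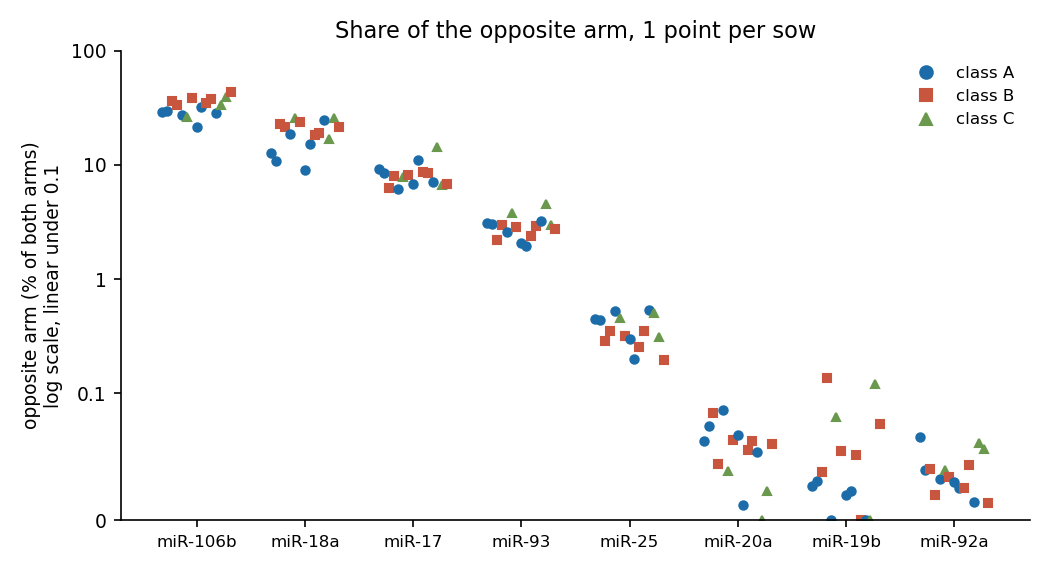
Opposite arm reads as a percentage of the reads of both arms (vertical axis, log scale, linear under 0.1%) for 8 members, 1 point per sow. The shares run from 21.4 to 43.5% for miR-106b down to under 0.1% for miR-92a in every sow. Only for miR-106b do all class B points lie above all class A points.

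The rule fixed the first 20 nt and left the 3′ end free. miR-20a was the most uniform of the abundant members, with 84.9% of its reads identical to the sequence above, against 51.6% for miR-92a and 42.8% for miR-19b. miR-18a ended at 2 main places, with 36.4% of reads at 23 nt and 35.4% at 21 nt. The next most common reads of miR-92a and miR-25 had the same length and another last base, and held 9.64% and 10.3% of their counts. The ends can hold bases added after cutting as well as sequencing errors, which were not parted here. Mean read length per sow did not pass a test against control for any member or dose, with adjusted p of 0.786 to 0.971 over 30 exact permutation tests. A single test could not have passed this adjustment: miR-25 at 1000 µg/kg/day, with a mean length difference of -0.0324 nt from control, had the smallest p that 4 against 4 sows allow (exact permutation p = 0.0286, adjusted p = 0.786).

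The start of the read set miR-19a apart. Reads that began 1 nt earlier made up 15.1% of miR-19a (10.2 to 21.6% over the sows), and 99.2% of them had T in front. For miR-19b the share was 0.175%, and for the remaining members it was at most 1.18%, in miR-17. The earlier start shifts the seed by 1 base. The rule leaves these reads out, so it counts a smaller share of the miR-19a reads than of the miR-19b reads.

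The seed families can also be read as a whole. Of all 20 to 26 nt reads with the miR-17 seed, miR-20a held 61.7% ± 2.72 (SD, n = 15), miR-93 16.4% ± 1.64, miR-17 9.81% ± 0.759, miR-106b 9.39% ± 0.98 and miR-106a 0.166% ± 0.081. Of those with the miR-92 seed, miR-92a held 57.7% ± 3.21 (SD, n = 15) and miR-25 26.2% ± 2.41. miR-92b, from a locus of its own on chromosome 4, held 11.2% ± 2.6, and miR-363, from the X-linked copy, 0.569% ± 0.224. Among the other genes of the family, 2 of 5 were tested, miR-92b and miR-363, and 0 were called at any dose by edgeR. miR-92b stood at 655.6 RPM in control and 652, 553.3 and 791.1 RPM in order of dose. miR-363 stood at 42.74 RPM in control and 33.13, 27.63 and 29.52 RPM in order of dose, with a log2 difference of -0.50 at 10 (95% confidence interval -1.07 to 0.07). miR-20b came to 2 reads in all and the group with the miR-367 bases to 1 read. miR-18b, which is close to miR-18a over these bases, was not counted. The X-linked miR-106a and miR-20b thus stood far below miR-17 and miR-20a of chromosome 11, which carry the same seed. The X-linked miR-363 stood far below miR-92a, whose reads can come from chromosome 11 or from the X chromosome.

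The 2 extractions of sow 7 show how far 2 libraries of the same sow differed. Between them the members differed by -0.16 (miR-17) to 0.40 (miR-18a) on the log2 scale of RPM, with miR-92a at 3519 and 3865 RPM and miR-25 at 1425 and 1643 RPM. The first library was of class B and the second of class C. This single pair cannot part tissue handling and library making from length class.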

How the data were processed

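Small RNA libraries of total endometrial RNA from 15 sows were prepared with a NEBNext small RNA set, per the labels' protocols. The authors deposited 1 file per library that lists distinct reads of 17 to 49 nt and the raw count of each, not normalized. The submitters' processing notes name FastQC and pig, human, cattle and mouse builds (Sscrofa10.2 for pig) without saying what each was used for; aligner and adapter steps are not given in the sources used here. The members, lists and length classes were chosen with earlier results of these data known, and the bases used to recognise each miRNA were written down after the files were read; they were not checked against a reference table.

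Reads of 20 to 26 nt were grouped by their first 20 nt, which makes each member 1 feature. Of 23707 groups with at least 30 reads, 9951 passed filterByExpr and held 84.31% of the 18 to 26 nt reads. edgeR 4.0.16 (R 4.3.3; robust quasi-likelihood fit over 15 sows, dose as factor) used the 18 to 26 nt total with TMM factors (0.804 to 1.17), and Benjamini-Hochberg adjustment ran over all groups at a threshold of 0.05. The dispersion corresponds to a biological coefficient of variation of 0.324. Ratios, arm shares and lengths were tested with exact permutations of the sows, two-sided. DESeq2 1.42.0 served as an alternative, and ViennaRNA 2.7.2 paired the arms. The edgeR dose test was checked on simulated counts, and the exact permutation test on small sets of values with known answers. Reads carry no molecular identifiers, so counting precision covers counting error only. The text names the 10 members, the listed family and opposite arms, and the 5 groups most like the cluster mean.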

Additional observations from a re-analysis of the deposited data

Results flagged for a closer look

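In groups of 4 sows, 90 checks asked whether the highest or lowest sow lay far from the others relative to the whole range of its group, and 6 did so. Chance flags about 1 group in 20. Among the control sows, sow 3 stood apart in the log2 ratio of miR-19b over miR-19a (2.815) and in the share of the opposite arm of miR-93 (2.19%). On 10 µg/kg/day, sow 9 had a mean miR-20a read length of 23.1 nt. On 1000 µg/kg/day, sow 12, the 1 class A sow of its group, had miR-20a at 1856 RPM and a log2 ratio of miR-25 over miR-93 of 1.750. Sow 13 of that group, which has the fewest reads, had 14.3% of miR-17 reads on the opposite arm.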

How the results depend on the processing

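No member was called at any dose under any alternative that was run: no TMM, scaling by all deposited reads, other filters, 18 nt matching, 1 mismatch, starts 1 nt earlier or later (added after seeing the data), either extraction of sow 7, class as a covariate or a single class, only the 2 groups compared, DESeq2, and leaving out each sow. No dose ratio or read length passed either. The planned fit over only the miRNAs of a reference table was not run, for want of a table. No paired analysis was possible because each sow has a number of its own and the dose groups share none. Depth limits miR-106a, at 2 to 46 reads per sow, and 3 or 4 sows per group limit the intervals.

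Counts of called read groups moved from 0 in few settings. Without filterByExpr 1 was called at 10 µg/kg/day and 1 for the 3 doses together, with DESeq2 1 and 2, and at 1000 with only the 2 groups compared 1. In class A alone the counts were 4, 1, 1, 4 and 1 (doses in order, together, trend), and in class B alone, with 1 or 2 sows per dose and a lone sow assumed to vary like the others, 15, 171, 39, 239 and 2. Leaving out sows gave 0 to 1 at 10. The cause was not tested.

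Directions of uncalled members turned in some settings. At 0.05 miR-18a stood at 0.010 without TMM, 0.004 with 1 mismatch and 0.042 with extraction 7b alone. At 10 miR-17 stood at -0.005 and miR-106b at -0.002 without TMM. At 1000 miR-93 stood at 0.015 with all deposited reads. In class A alone miR-25 and miR-106b stood at -0.127 and -0.086 at 0.05, and miR-17, miR-20a, miR-93 and miR-106b at 0.023, 0.078, 0.093 and 0.091 at 1000. In class B alone miR-18a, miR-19b and miR-106b stood at 0.113, 0.021 and -0.043 at 0.05, miR-106b at -0.053 at 10 and miR-93 at 0.011 at 1000. Leaving out 1 sow at a time, the ranges at 0.05 were -0.026 to 0.315 for miR-17, -0.196 to 0.307 for miR-18a, -0.327 to 0.008 for miR-19a, -0.257 to 0.120 for miR-19b, -0.089 to 0.240 for miR-20a, -0.955 to 0.098 for miR-106a and -0.082 to 0.285 for miR-106b. At 10 they were -0.048 to 0.264 for miR-17, -0.021 to 0.539 for miR-18a, -0.067 to 0.266 for miR-20a and -0.044 to 0.282 for miR-106b. At 1000 they were -0.233 to 0.099 for miR-17, -0.503 to 0.012 for miR-18a, -0.233 to 0.105 for miR-20a, -0.204 to 0.120 for miR-93 and -0.226 to 0.066 for miR-106b. The cause was not tested.

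The log2 ratio of miR-92a over its partners at 10 was 0.015 with the median of the partners and -0.205 to 0.061 leaving out sows. The cluster over the paralogue ran from -0.037 to 0.172 at 0.05 and from -0.146 to 0.010 at 10 in the same way. For the partners and miR-92a, r was 0.26 without TMM and 0.15 with all deposited reads, and for cluster and paralogue 0.46 without TMM, none past the threshold.

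Alternatives for the class comparison were chosen after seeing the data. The count of members lower in class B was 2 to 7 leaving out sows, 2 in the control and 10 µg/kg/day sows and 0 with all deposited reads. Leaving out sows, the 6 members stood between -0.92 and -0.50 and 2.1 to 4.8% of all read groups were called lower. With all deposited reads 1.28% were called lower and 38.3% higher. Of the uncalled members, miR-92a stood at 0.004 and miR-25 at 0.098 without TMM, miR-25 at 0.034 without filterByExpr and at -0.086 to 0.058 leaving out sows, and miR-93 at 0.056 with all deposited reads, where miR-92a (0.434) and miR-25 (0.521) were called higher. The ratios of miR-92a over its partners and of miR-25 over miR-93 were 0.566 and 0.367 in the control and 10 µg/kg/day sows, where 4 against 4 sows did not pass after adjustment, and passed under each of their other alternatives.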
